A study of Mus musculus with 24 samples.

Results

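The array signal of 10 genes on mouse chromosome 4, in the stretch that holds Trim63, the gene for MuRF1, was compared between wild-type and MuRF1-knockout muscle. They were Hspb7, Pnrc2, Necap2, Bsdc1, Gpn2, Eya3, Zmym6, Padi2, Slc30a2 and Myom3, selected on these same arrays by their knockout against wild-type difference and by lying near Trim63 in gene order. Knockout against wild-type values are therefore a description here, with no test, and nothing is supported by them. The 10 genes were read by 14 of the 46632 probes on the array, of which 12 passed the detection filter, together with 20769 probes in all. Only Slc30a2 lay directly beside Trim63. The outermost genes, Zmym6 and Hspb7, lay 73 measured genes before and 72 after it, so the genes span a wide region rather than the immediate neighbourhood of the locus.

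The study measured RNA of the triceps surae, the calf muscle group, on Illumina beadchips. The mice were 4 months old and labelled as strain C57/Bl6 in all 8 groups, and either were wild type or lacked MuRF1. Each genotype was left untreated or drank water with dexamethasone, a synthetic glucocorticoid, at 3 mg/kg for 3 or for 14 days, with littermate controls at each time. Each of the 8 groups held 3 arrays, 24 in all. The labels do not say that the 3 samples of a group came from separate animals, so p-values speak only to the spread among these samples, and that spread could be technical. How the deletion was built, in which strain, and how often the line was backcrossed is not stated in the labels.

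MuRF1 is a ubiquitin ligase of the sarcomere that muscle makes in larger amounts under glucocorticoids, and mice without it are used to study muscle wasting. A targeted allele travels with the DNA around it, so mice bred from a deletion made in another strain can carry that strain's alleles of the neighbouring genes. Such alleles can change how much RNA a gene makes, and a base difference under a short probe can change how well the RNA binds to it without any change in amount. All knockout arrays share both the deletion and whatever DNA came with it, so the 2 cannot be told apart in these data, and a contribution of carried-over DNA was not tested.

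Between 29.0% and 36.1% of probes were detected per array. Replicate 3 of the dexamethasone-treated knockout at 3 days stood apart on the first principal component, at 79.1 against -35.2 to 27.0 for the other 23 arrays, and the counts and the main 3-day treated differences are also given without it. Acta1, which defines muscle fibres, was detected on all 24 arrays. Of 63 marker genes of muscle fibres and 12 other cell classes, 44 were measured, and 0 of these passed the threshold in limma in any of the 4 comparisons of knockout with wild type, with 3, 3, 5 and 5 at an unadjusted p under 0.05. Between 0.299% and 0.549% of all probes passed in these comparisons, so the count of 0 does not show equal cell content. The share of all probes at the unadjusted threshold is not given. The summed muscle fibre signal ranged from 143516 to 162200 over wild-type and from 130473 to 174482 over knockout arrays. Cd3e, which defines T lymphocytes, was detected on 0 arrays and Pax7, which defines satellite cells, on 1. In whole muscle, fewer cells of a type and less RNA per cell cannot be told apart.

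Trim63 itself, read by probe ILMN_3161061, gave log2 signals of 8.45, 8.65 and 8.49 in untreated and 9.87, 9.27 and 9.77 in treated wild-type muscle of the 3-day arm. In the 14-day arm it gave 8.10, 8.10 and 8.07 untreated and 9.28, 9.95 and 9.92 treated. The 12 knockout arrays lay between 4.46 and 5.16, and 4 of them detected the probe. The genotypes did not overlap, so no array went against its genotype label, although no label says where the probe lies relative to the deletion.

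Of the 12 probes of the 10 genes, 8 were lower and 0 higher in untreated knockout muscle at 3 days, where 0.323% of all probes passed the threshold (adjusted p under 0.05 in limma), 0.111% higher and 0.212% lower. Under dexamethasone at 3 days 8 were lower and 1 higher, with 0.472% of all probes past the threshold, 0.202% higher and 0.27% lower. At 14 days 9 were lower and 0 higher without treatment, against 0.299% of all probes (0.12% higher, 0.178% lower), and 9 were lower and 1 higher under dexamethasone, against 0.549% (0.241% higher, 0.308% lower). The 8 genes other than Slc30a2 and Myom3 were lower past the threshold in all 4 comparisons, with 1 probe each, and 0.144% of all probes passed in all 4. The median log2 difference of the 12 probes was -1.24, -1.16, -1.39 and -1.17 in the 4 comparisons in that order, beside -0.00, 0.00, 0.02 and 0.02 over all probes. These counts restate the choice of the genes. For 9 of the 12 probes the 12 knockout arrays lay wholly on one side of the 12 wild-type arrays, as they did for 0.193% of all probes. Without the array that stood apart the counts were 9 lower untreated at 3 days, 8 lower and 1 higher treated at 3 days, 9 lower untreated at 14 days and 10 lower and 1 higher treated at 14 days, and again 8 probes passed in all 4. Of all probes 79 then passed untreated at 3 days (67 with all arrays), 85 treated at 3 days (98) and 198 treated at 14 days (114). In all 4 comparisons 36 of all probes then passed, against 30. The treated 3-day difference of the bright Myom3 probe (ILMN_2673358) was then -0.79 rather than -1.07 and that of the dim one (ILMN_2524304) -0.56 rather than -0.69. Slc30a2 then had 1.66 rather than 1.83, and the other 9 probes moved by less than 0.2.

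**Figure D1:**
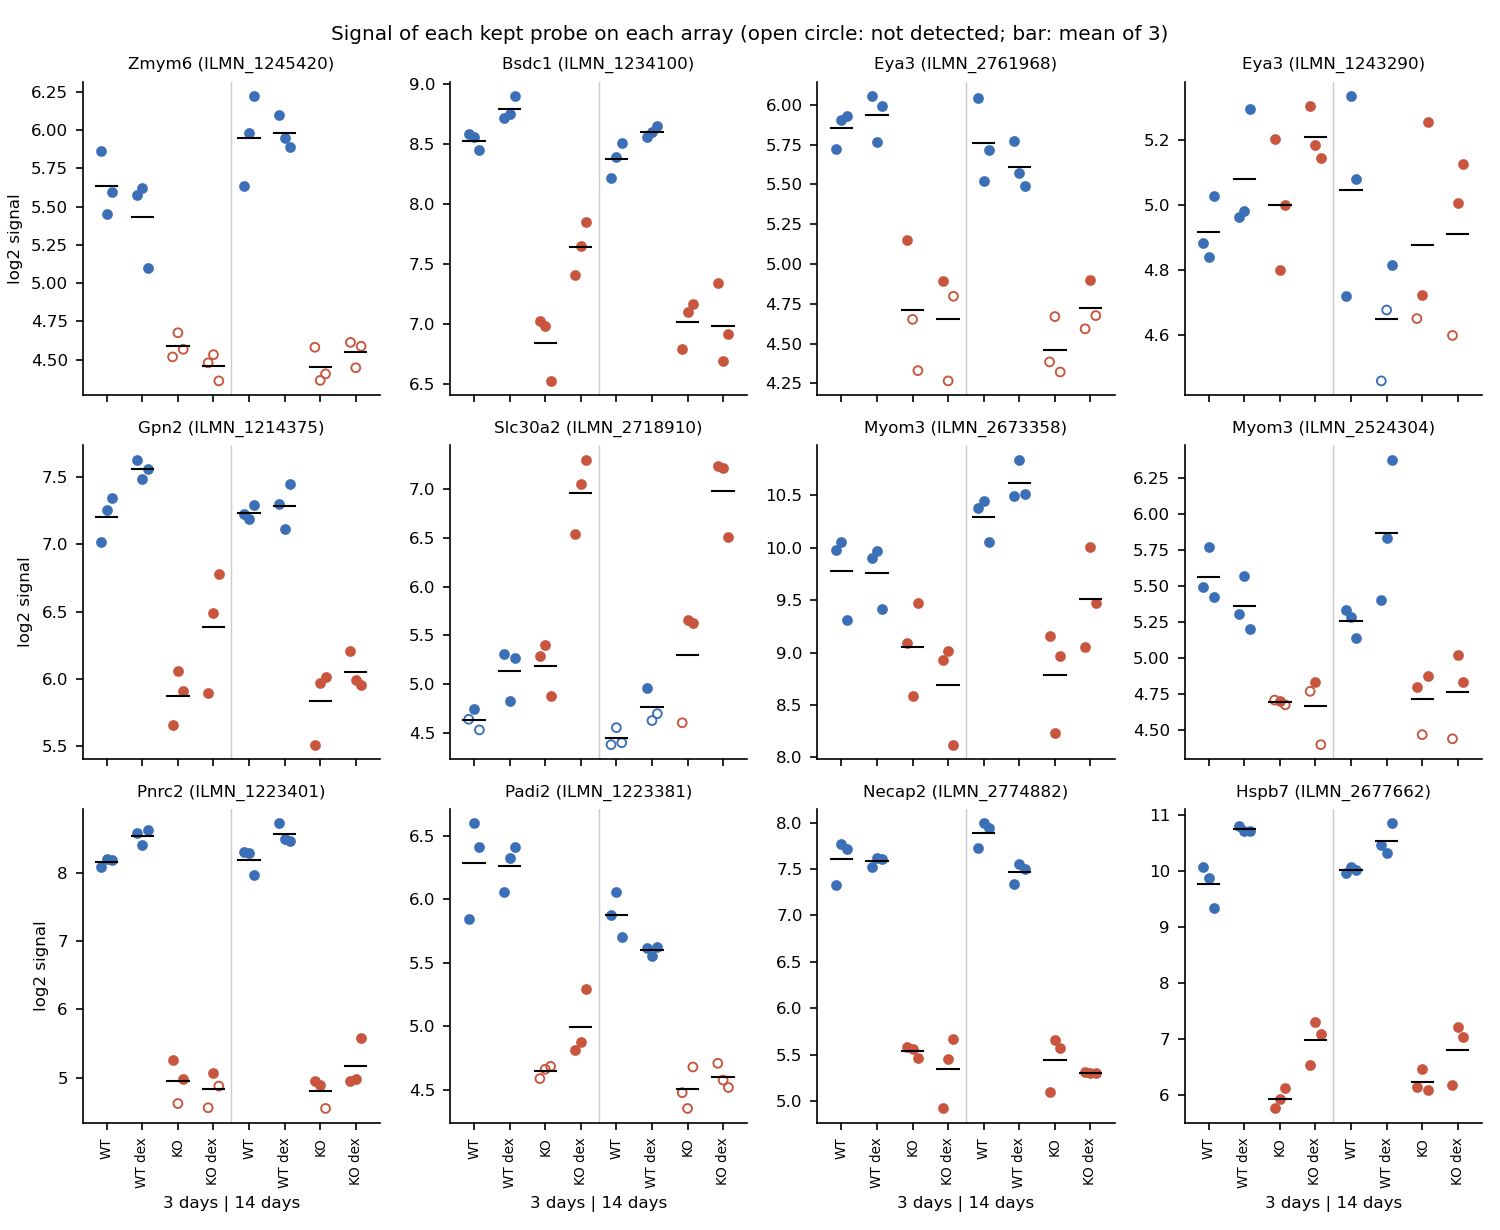
Log2 signal of the 12 kept probes on each of the 24 arrays, by genotype, treatment and time, with wild type in blue, knockout in red, open circles where the probe was not detected and bars at the mean of 3 arrays. Hspb7, Pnrc2 and Necap2 show a wide gap between genotypes in every group, Slc30a2 is high only in treated knockout muscle, and the 2 genotypes overlap for Eya3 probe ILMN_1243290.

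Hspb7, a small heat shock protein of heart and skeletal muscle that protects the filamin and actin scaffold, had the widest difference. Its log2 signals were 10.06, 9.88 and 9.34 in untreated and 10.80, 10.71 and 10.71 in treated wild-type muscle at 3 days, and 9.96, 10.07 and 10.02 untreated and 10.46, 10.31 and 10.85 treated at 14 days. In the knockout they were 5.76, 5.92 and 6.12 untreated and 6.53, 7.30 and 7.09 treated at 3 days, and 6.15, 6.47 and 6.09 untreated and 6.18, 7.21 and 7.04 treated at 14 days. Every knockout array lay at least 2.05 log2 units below every wild-type array, yet the probe was detected on all 12 knockout arrays. The difference was -3.83, -3.77, -3.78 and -3.73 in the 4 comparisons, with a mean of -3.77 (SE 0.115), a 13.7-fold lower signal. It varied by less than its standard error of 0.229 between treatments and times.

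Myom3, which codes for myomesin-3, a protein of the sarcomere's M-band, had 2 probes at different levels. Probe ILMN_2673358 was bright, with a lowest, median and highest log2 signal of 9.31, 10.05 and 10.84 over the 12 wild-type arrays and 8.12, 9.03 and 10.01 over the 12 knockout arrays. The genotypes overlapped there, and the difference passed the threshold only at 14 days without treatment, where it was -1.51 (SE 0.284). In the other comparisons it was -0.73 and -1.07 at 3 days, untreated and treated, and -1.11 under dexamethasone at 14 days. Probe ILMN_2524304 was dim, at 5.14, 5.41 and 6.38 over wild-type and 4.40, 4.74 and 5.02 over knockout arrays, and 6 of 12 knockout arrays detected it. Its genotypes did not overlap, with a gap of 0.12, and its difference passed only under dexamethasone at 14 days, at -1.11 (SE 0.197). Both probes thus pointed the same way in all 4 comparisons, but passed the threshold in different ones.

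Pnrc2, a nuclear receptor coactivator that in human cells also joins decay factors to mRNA, was the other gene with a difference above 10-fold. Its log2 signals in wild-type muscle were 8.09, 8.21 and 8.19 untreated and 8.58, 8.41 and 8.62 treated at 3 days, and 8.31, 8.29 and 7.97 untreated and 8.73, 8.49 and 8.48 treated at 14 days. In knockout muscle they were 5.26, 4.62 and 4.98 untreated and 4.56, 5.06 and 4.88 treated at 3 days, and 4.95, 4.90 and 4.55 untreated and 4.94, 4.98 and 5.58 treated at 14 days. The gap between the genotypes was 2.39, the widest of the 12 probes, and the knockout signal lay near background, with 8 of 12 arrays detecting the probe. The mean difference was -3.43 (SE 0.0916), a 10.8-fold lower signal. Values that low are compressed by the offset added before the log2 step, so a fold near background is understated.

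Necap2, an adaptor-binding protein of clathrin-coated vesicles, was detected on all 24 arrays. In wild-type muscle it read 7.33, 7.77 and 7.71 untreated and 7.53, 7.62 and 7.61 treated at 3 days, and 7.73, 7.99 and 7.94 untreated and 7.34, 7.55 and 7.50 treated at 14 days. In knockout muscle it read 5.58, 5.57 and 5.46 untreated and 4.92, 5.46 and 5.66 treated at 3 days, and 5.10, 5.66 and 5.57 untreated and 5.31, 5.31 and 5.30 treated at 14 days. No arrays of the 2 genotypes came within 1.67 log2 units of each other. The mean difference was -2.23 (SE 0.0851), 4.68-fold lower.

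Bsdc1 and Gpn2 were lower by 2.73-fold and 2.44-fold on average. Bsdc1, which carries a BSD domain, had a lowest, median and highest log2 signal of 8.22, 8.57 and 8.90 in wild type and 6.53, 7.06 and 7.85 in knockout, and was detected on every array. Gpn2, a GPN-loop GTPase whose yeast counterpart helps assemble RNA polymerase II, had 7.02, 7.30 and 7.63 in wild type and 5.51, 5.98 and 6.78 in knockout, also detected on every array. Neither gene's genotypes overlapped, and both kept a detected signal in the knockout. Their mean differences were -1.45 (SE 0.0833) for Bsdc1 and -1.29 (SE 0.0909) for Gpn2.

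Padi2, the enzyme that converts arginine in proteins to citrulline, had 5.56, 5.97 and 6.60 in wild type and 4.35, 4.67 and 5.29 in knockout, where 3 of 12 arrays detected it, all of them treated for 3 days. Its signal was at least 2.91-fold lower in untreated knockout muscle at 3 days, at least 2.23-fold lower in untreated muscle at 14 days and at least 1.82-fold lower in treated muscle at 14 days, each a bound because the knockout arrays did not detect it. Zmym6, a zinc finger protein of the MYM type, had 5.10, 5.75 and 6.22 in wild type and was detected on 0 of 12 knockout arrays. Its signal was at least 1.86-fold lower in untreated and at least 1.54-fold lower in treated knockout muscle at 3 days, and at least 2.33-fold and at least 2.37-fold lower at 14 days. The kept Zmym6 probe, ILMN_1245420, is annotated to a cDNA clone rather than to the RefSeq transcript, and the other 2 Zmym6 probes were detected on 1 and 0 of 24 arrays, so they give no second reading.

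Eya3, a phosphatase and coactivator of sine oculis homeobox factors, was read differently by its 2 probes. Probe ILMN_2761968 had 5.49, 5.77 and 6.06 in wild type and 4.26, 4.66 and 5.15 in knockout, with no overlap, and 3 of 12 knockout arrays detected it. Its measured difference was -1.14 and -1.29 at 3 days, untreated and treated, and -0.89 (SE 0.192 each) in treated muscle at 14 days, with 1 of 3 knockout arrays detecting it in each. In untreated muscle at 14 days no knockout array did, and its signal was at least 2.05-fold lower. Probe ILMN_1243290 had 4.46, 4.92 and 5.33 in wild type and 4.60, 5.07 and 5.30 in knockout, with a mean difference of 0.08 (SE 0.0906). The 2 probes for the same gene therefore did not show the same genotype difference. The second was detected on 20 of 24 arrays, close to background in both genotypes. Which transcripts each probe reads, and the base sequences of the probes, are not used here.

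**Figure D2:**
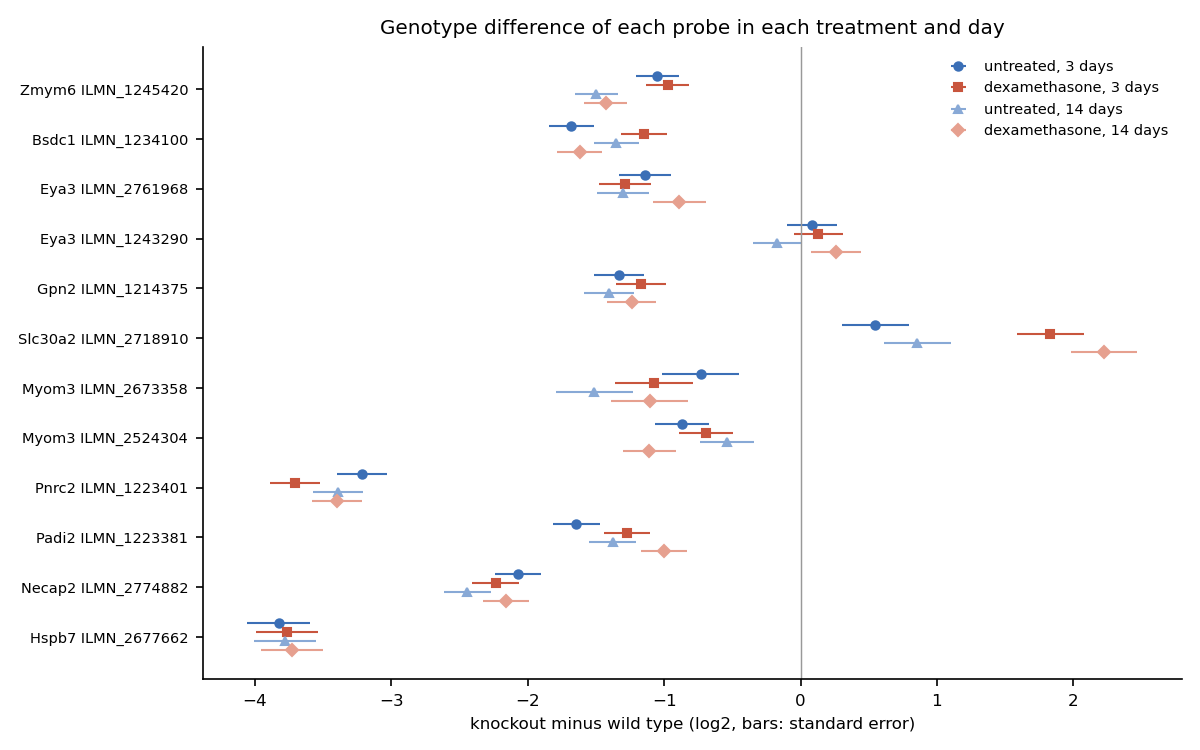
Knockout minus wild-type difference on the log2 scale (points, with standard errors) of each of the 12 probes in the 4 comparisons, 3 arrays against 3 in each. Hspb7 stays between -3.83 and -3.73, while Slc30a2 runs from 0.55 to 2.23 and is higher under dexamethasone than without it.

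Slc30a2, a zinc exporter that loads zinc into vesicles and is known to respond to glucocorticoids in pancreatic acinar cells of rodents, was the only one of the 10 with a higher signal in the knockout. In wild-type muscle its log2 signals were 4.64, 4.74 and 4.53 untreated and 5.31, 4.82 and 5.27 treated at 3 days, and 4.38, 4.55 and 4.40 untreated and 4.96, 4.62 and 4.70 treated at 14 days. In knockout muscle they were 5.28, 5.40 and 4.87 untreated and 6.54, 7.05 and 7.30 treated at 3 days, and 4.60, 5.66 and 5.63 untreated and 7.23, 7.22 and 6.51 treated at 14 days. All 6 treated knockout arrays lay above every other array, and the other 18 overlapped. Wild-type muscle detected the probe on 5 of 12 arrays and knockout muscle on 11 of 12. The difference between genotypes was 0.55 without treatment at 3 days, and 1.83 and 2.23 under dexamethasone at 3 and 14 days (SE 0.245 each), past the threshold only under dexamethasone. Untreated muscle at 14 days gave a signal at least 1.49-fold higher in the knockout, since 0 of 3 wild-type arrays detected the probe there.

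The places of the genes were taken from the gene order of a RefSeq annotation. Counted in measured genes from Trim63, Zmym6, Bsdc1, Eya3 and Gpn2 stood 73, 60, 29 and 14 places before it, and Slc30a2, Myom3, Pnrc2, Padi2, Necap2 and Hspb7 stood 1, 16, 18, 65, 69 and 72 places after it. The stretch between Zmym6 and Hspb7 held 146 measured genes. In this stretch 9 of 146 genes, 8 of the 10 and Trim63, passed the threshold in all 4 comparisons, and 0 of the other 135 did, while 3 of these passed in at least 1. Over all 11001 placed genes the share past the threshold in all 4 was 0.191%, and in at least 1 it was 1.15%. Among the 10 genes, Hspb7 (-3.77) and Necap2 (-2.23) at the far end had larger differences in size than Slc30a2 (1.37) and Myom3 (-1.11) near Trim63. However, Pnrc2, 18 places after Trim63, had -3.43. Padi2 (-1.32) and Zmym6 (-1.24), 65 and 73 places away, had smaller differences in size than Slc30a2. The genes were chosen by these differences, and a relation of size to distance was not tested. Pdik1l and Extl1, the nearest other measured genes on the 2 sides, differed by 0.11 and 0.27 on average, and neither passed in any comparison.

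The largest differences of genes in the stretch that are not on the list were these. E2f2, a cell-cycle transcription factor 24 places after Trim63, was lower by a mean log2 difference of -0.88 and passed in 1 of 4 comparisons. Map3k6, a stress-activated kinase 19 places before it, had -0.76 and passed in 1. Myom3 had -1.11 by its brighter probe, the smallest size inside the list. Beyond the stretch, 4 further genes of chromosome 4 passed in all 4 comparisons. They were 2 of the next 146 measured genes before it (1.37%) and 2 of the 114 after it (1.75%). Of the remaining 243 genes of the chromosome 0 passed. Hyi (2.33) and Cap1 (1.30), which lie 135 and 108 places before Trim63, and Rbp7 (1.59), 115 places after it, were higher in the knockout, and Ube4b (-0.83), 114 places after it, was lower. On other chromosomes 8 of 10352 genes passed in all 4 (0.0773%). Without the array that stood apart 25 genes in place of 21 passed in all 4, including all 21 and 15 on chromosome 4.

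**Figure D3:**
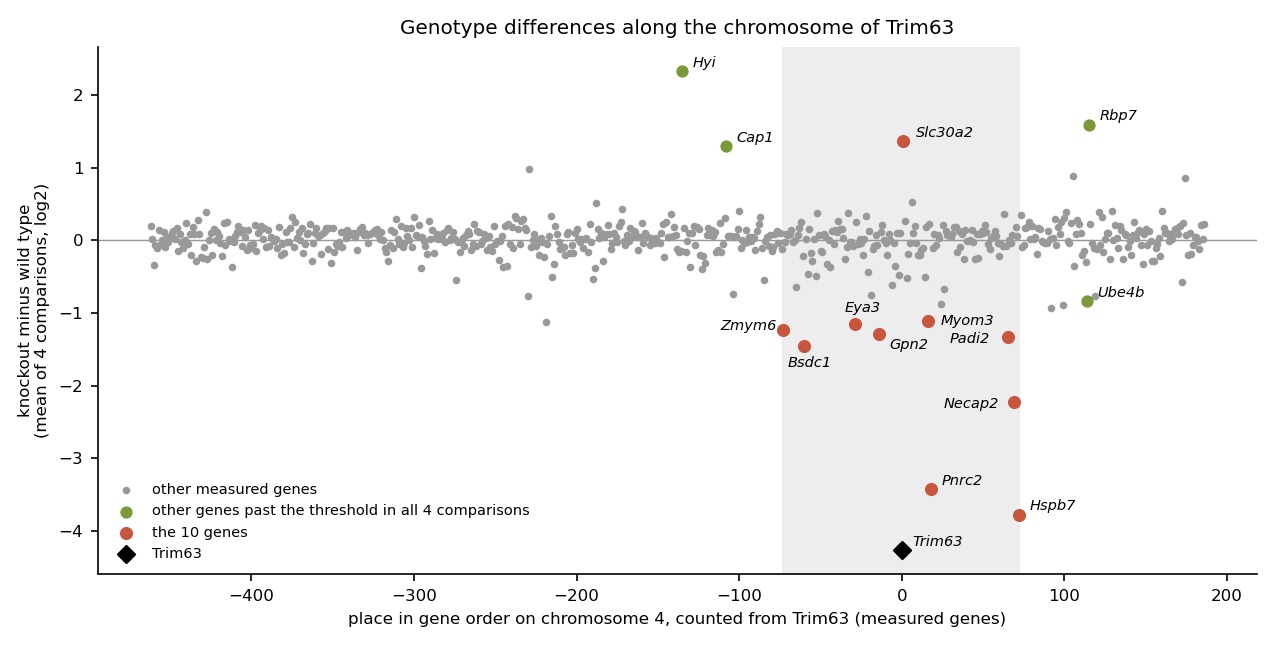
Mean knockout minus wild-type difference (log2) of each measured gene of chromosome 4 against its place in gene order counted from Trim63, with the stretch between Zmym6 and Hspb7 shaded. Of the 10 genes, 9 lie with Trim63 below zero and Slc30a2 above, while most of the other genes of the stretch lie near zero.

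Genes related to the 10 but lying on other chromosomes were not part of the choice, and their genotype differences could be tested. Their list was, however, drawn up with earlier results of these data known. The list held other small heat shock proteins, M-band proteins, the adaptor-binding protein Necap1, GPN GTPases, eyes-absent proteins and their homeobox partners, MYM zinc fingers, zinc exporters and the 2 other MuRF genes, and 44 probes of 27 of its 36 genes were kept. The listed relatives of Pnrc2 and Padi2 all lie on chromosome 4 and were not part of this test. In limma 0 of 44 probes passed the threshold in each of the 4 comparisons, with lowest adjusted p values of 0.237 and 0.135 at 3 days (untreated and treated) and 0.187 and 0.382 at 14 days. Over all probes 0.323%, 0.472%, 0.299% and 0.549% passed in the same order. At such shares hardly any of 44 probes would pass, so the count of 0 does not show that the relatives are alike in both genotypes. At an unadjusted p under 0.05 the counts were 2, 6, 7 and 2 of 44 in the same order, without a share of all probes to read them against. Their log2 differences lay between -0.78 and 0.55. Without the array that stood apart the count under dexamethasone at 3 days was also 0 of 44. In a separate fit with array weights, which give each array its own reliability, 4 of 44 passed under dexamethasone at 3 days. There 1863 of all 20769 probes passed. Without treatment at 14 days that fit called 9 of 44, and 2943 of all probes. Scaling arrays to a common median, in another fit, called 7 of 44 under dexamethasone at 3 days, and 2512 of all probes. The counts of relatives thus rose along with those of all probes.

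The response to dexamethasone, averaged over the 2 genotypes, is orthogonal to the genotype difference by which the genes were chosen, in balanced groups, and was tested. At 3 days 4 of the 12 probes rose (3 without the array that stood apart) and 0 fell, where 10.3% of all probes passed the threshold, 5.49% higher and 4.84% lower. At 14 days 2 rose and 0 fell, where 6.49% of all probes passed, 2.4% higher and 4.09% lower. The median change of the 12 was 0.15 and 0.12, beside 0.00 and -0.00 over all probes. Slc30a2 and Hspb7 rose at both times, and Bsdc1 and Gpn2 at 3 days.

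Slc30a2 rose by 1.14 after 3 days (SE 0.174, adjusted p = 6.59e-05 in limma) and by 1.00 after 14 (SE 0.174, adjusted p = 0.000438), and in each genotype and time all 3 treated arrays lay above all 3 untreated ones. In wild-type muscle alone the change was 0.50 and 0.32 at 3 and 14 days, beside 1.78 and 1.69 in the knockout (SE 0.245 each). The difference between these responses, 1.28 and 1.37 (SE 0.347 each), is built from the genotype comparisons that chose the gene and is given without a test. Wild-type signals lay near background, with 0 of 3 untreated arrays detecting the probe at 14 days, so the wild-type change is measured close to background, and at 14 days its bound is at least 1.03-fold. Without replicate 3 of the treated knockout at 3 days the 3-day rise was 1.05 (adjusted p = 0.000183), the knockout change 1.61 and the difference between responses 1.11. The size of the rise depended on the setting. Over 34 alternatives it ran from 0.63 to 1.35 at 3 days and from 0.58 to 1.12 at 14 days, with the lowest values from an offset of 50.

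Hspb7 rose by 1.01 after 3 days (SE 0.162, adjusted p = 0.00013 in limma) and by 0.55 after 14 (SE 0.162, adjusted p = 0.0429). The response was of like size in both genotypes, 0.98 and 0.52 in wild type and 1.04 and 0.57 in knockout, on signals 13.7-fold apart. The 14-day rise fell short of the threshold in 17 of 34 alternative settings, 14 of which left out a single array, and over all 34 its adjusted p ranged from 0.00368 to 0.273. The 3-day rise passed in all 34. Treated arrays lay above untreated ones in each genotype and time, except in the knockout at 14 days, where 1 treated array (6.18) fell among the untreated ones. Without the array that stood apart the 3-day rise was 0.98 (adjusted p = 0.000314), with 0.98 in the knockout.

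Bsdc1 rose at 3 days by 0.53 (SE 0.118, adjusted p = 0.00406 in limma), with 0.26 in wild type and 0.79 in knockout. Its change at 14 days was 0.10 (adjusted p = 0.738). Gpn2 rose by 0.44 at 3 days (SE 0.129, adjusted p = 0.0299), with 0.35 in wild type and 0.52 in knockout, and its 14-day change was 0.14 (adjusted p = 0.644). The Gpn2 call did not hold without the array that stood apart, at 0.34 and adjusted p = 0.0988, while that of Bsdc1 did, at 0.47 and adjusted p = 0.0132. In the knockout alone the 3-day changes without that array were 0.32 for Gpn2 and 0.68 for Bsdc1. The Gpn2 call was also lost when any of 5 other 3-day arrays was left out, namely treated knockout replicate 2, untreated knockout replicate 1, treated wild-type replicates 1 and 3 and untreated wild-type replicate 1, with adjusted p between 0.06 and 0.0901. For neither gene was the change between 3 and 14 days past the threshold, with a difference of -0.43 (adjusted p = 0.198) for Bsdc1 and -0.30 (adjusted p = 0.407) for Gpn2.

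The other 8 probes did not pass at either time. Pnrc2 had a log2 change of 0.13 after 3 and 0.37 after 14 days (adjusted p = 0.633 and 0.0954 in limma). In wild type alone Pnrc2 changed by 0.37 at both times, and in knockout by -0.12 and 0.37 (SE 0.183 each). Necap2 had -0.10 and -0.28 (adjusted p = 0.682 and 0.2), and Padi2 0.17 and -0.09 (adjusted p = 0.463 and 0.761). The bright Myom3 probe had -0.19 and 0.53 (adjusted p = 0.65 and 0.138) and the dim one -0.12 and 0.33 (adjusted p = 0.698 and 0.189). Zmym6 and both Eya3 probes stayed between -0.18 and 0.19. Of 12 knockout arrays, 0 detected Zmym6, 3 Padi2, 3 Eya3 ILMN_2761968, 6 the dim Myom3 probe and 8 Pnrc2. For these probes a change in the knockout, and with it the mean over genotypes, could be understated. At 14 days against 3 days 0 of 12 dexamethasone responses differed past the threshold, where 1.25% of all probes did, and 0 of 12 untreated levels differed, where 0.164% did. At an unadjusted p under 0.05 in limma these counts were 3 and 1 of 12. The share of all probes at that threshold is not given, so these counts have no background to be read against.

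**Figure D4:**
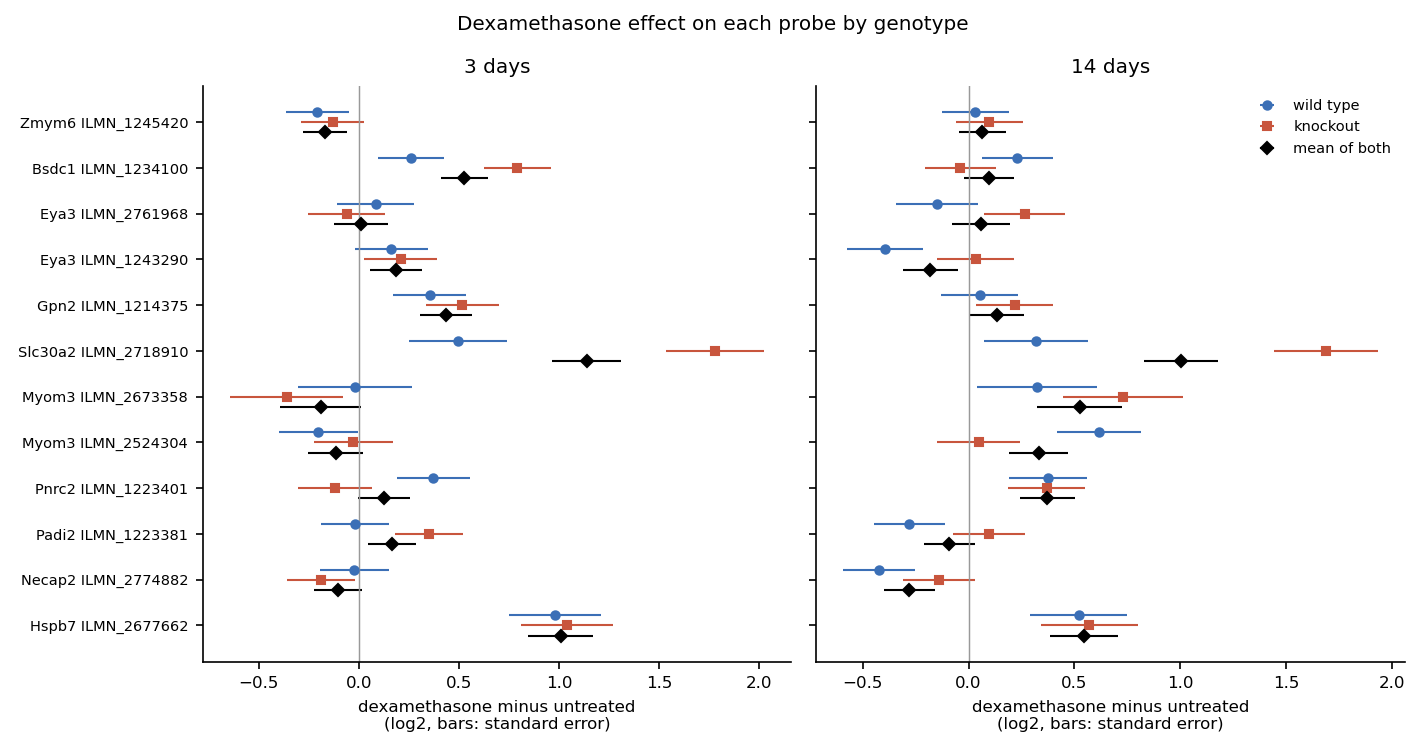
Change under dexamethasone on the log2 scale (points, with standard errors) of each of the 12 probes at 3 and 14 days in wild type, in knockout and as the mean of both. Slc30a2 moves by 1.78 and 1.69 in the knockout against 0.50 and 0.32 in wild type, whereas the Hspb7 points of the 2 genotypes lie together.

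Markers of other cells moved with treatment beside these changes. At 3 days 4 of the 44 measured marker genes rose and 14 fell, and at 14 days 2 rose and 13 fell. Over all probes 5.49% rose and 4.84% fell at 3 days, and 2.4% rose and 4.09% fell at 14 days. Of 7 fibroblast genes 5 fell at 3 days and 7 at 14 days. Their summed signal at 3 days was 8207 to 8658 untreated and 6035 to 7697 treated in wild type, and 7687 to 9768 and 6465 to 7115 in knockout. At 14 days it was 7653 to 11628 untreated and 5733 to 7687 treated in wild type, and 8320 to 11150 and 5859 to 6923 in knockout. Of 4 measured red blood cell genes 4 fell at 3 days and 0 at 14 days. Their summed signal at 3 days was 34383 to 58183 untreated and 7138 to 11407 treated in wild type, and 43004 to 57618 and 8234 to 11661 in knockout. Of 4 tendon genes 3 fell and 1 rose at 3 days, and 3 fell at 14 days, and of 3 measured macrophage genes 2 fell at each time. Of 3 smooth muscle genes 2 rose at 3 days and 0 at 14 days. Their summed signal at 3 days was 741 to 1087 untreated and 1580 to 1696 treated in wild type, and 764 to 920 and 1374 to 1637 in knockout. Of 4 measured adipocyte genes 1 rose at each time. Their summed signal at 14 days was 653 to 1136 untreated and 1321 to 2417 treated in wild type, and 584 to 1036 and 716 to 2127 in knockout. At 14 days 1 of 6 muscle fibre genes also rose and 1 of 4 endothelial genes fell. Without the array that stood apart 2 marker genes rose and 15 fell at 3 days, with 0 tendon genes and 1 smooth muscle gene among those that rose and 1 muscle fibre gene among those that fell. The part of these shifts in the responses of the 10 genes was not tested.

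The relatives on other chromosomes gave a mixed picture under dexamethasone at 3 days, with 5 of 44 probes higher and 4 lower. Over all probes 5.49% were higher and 4.84% lower. Hspb1 (0.65) and Cryab (0.54), small heat shock proteins like Hspb7, rose, as did the M-band gene Myom1 (0.48) and the MuRF family gene Trim54 (0.49). Necap1 rose on the dimmer of its 2 probes (0.61), while the brighter did not pass (0.22, adjusted p = 0.207 in limma). Slc30a1, the zinc exporter of the cell surface, fell on both of its probes (-0.67 and -0.42), opposite in direction to Slc30a2. Obsl1 fell on 1 of its 2 probes (-0.81), while the other did not pass (-0.09, adjusted p = 0.825 in limma). Ttn fell on 1 of its 10 probes (-0.60). Without the array that stood apart 5 were higher and 3 lower, and Ttn no longer passed (-0.48, adjusted p = 0.0897 in limma). At 14 days 1 of 44 probes was higher and 2 were lower, where 2.4% of all probes were higher and 4.09% lower. Myom1 (0.38) rose, and Hspb3 (-0.61) and Hspb8 (-0.42) fell.

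Promoter windows of the genes were searched for short motifs. RefSeq windows of 300 bases, 250 before and 50 after the start, were matched for 9 of the 10 genes in GRCm38.p6, all on the strand of the gene. ACANNNTGT, the core of glucocorticoid receptor elements, and its longer single side AGAACA were searched on both strands, with CACGTG and TATAAA. They occur in 6.85%, 19.0%, 7.15% and 13.6% of 32851 windows. CACGTG was found 4 times in Zmym6, with first bases 100, 73 and 36 bases before the start and 13 after it, and none of the other motifs was found in any of the 9 windows. The windows of Hspb7 and Slc30a2 are shown because these genes rose at both times, and that of Zmym6 because it is the only one with a match, in capitals. An absent match says only that these letters are not in the window.
Hspb7, chr4:141420529-141420828, plus strand: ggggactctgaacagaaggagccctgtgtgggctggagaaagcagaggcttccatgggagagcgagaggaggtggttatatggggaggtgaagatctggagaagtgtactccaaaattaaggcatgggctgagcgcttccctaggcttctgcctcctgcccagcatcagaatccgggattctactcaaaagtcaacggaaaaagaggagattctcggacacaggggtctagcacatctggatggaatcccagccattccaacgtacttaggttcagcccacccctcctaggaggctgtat
Slc30a2, chr4:134343216-134343515, plus strand: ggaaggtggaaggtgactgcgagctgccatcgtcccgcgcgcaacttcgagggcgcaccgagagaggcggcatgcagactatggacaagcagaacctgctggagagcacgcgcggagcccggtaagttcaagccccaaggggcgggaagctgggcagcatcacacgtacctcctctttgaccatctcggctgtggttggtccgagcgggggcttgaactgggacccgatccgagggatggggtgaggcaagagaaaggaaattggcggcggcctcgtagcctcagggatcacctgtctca
Zmym6, chr4:127077133-127077432, plus strand: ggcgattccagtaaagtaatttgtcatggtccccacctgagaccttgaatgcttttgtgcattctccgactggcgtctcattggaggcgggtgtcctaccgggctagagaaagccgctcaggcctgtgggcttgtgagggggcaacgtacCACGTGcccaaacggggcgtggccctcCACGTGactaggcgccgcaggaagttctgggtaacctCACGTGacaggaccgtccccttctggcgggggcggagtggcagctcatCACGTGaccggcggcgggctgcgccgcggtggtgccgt
The Slc30a2 window was 63% G and C with 23 CpG pairs and that of Hspb7 53.7% with 6, beside medians of 52.7% and 7 over all windows.

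The genes with the signal pattern most like those of Hspb7 and Pnrc2, which had the widest differences, were found over the 24 arrays. For Hspb7 they were Trim63 (Pearson r 0.97), Xirp2 (0.95) and Rab6b (0.94), and for Pnrc2 the same 3 genes with 0.97, 0.96 and 0.95. Xirp2, a muscle actin-binding repeat protein, and Rab6b, a small GTPase, lie on chromosomes 2 and 9. All 3 differ between the genotypes, and the correlations span that split. Within the 12 wild-type and the 12 knockout arrays Hspb7 gave 0.77 and 0.06 with Trim63, 0.44 and 0.24 with Xirp2 and -0.01 and -0.12 with Rab6b. Pnrc2 gave 0.78 and -0.53 with Trim63, 0.09 and 0.50 with Xirp2 and -0.07 and -0.73 with Rab6b. Knockout signals of Trim63 and Pnrc2 lay near background.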

How the data were processed

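The non-normalized file deposited by the authors holds an average signal intensity and a detection p-value per probe and array, per the file headers, for 46632 probes and 24 arrays. The submitters' processing notes list BeadStudio 3.2.3 without its role. The authors' value table, also deposited, holds linear intensity values that look background-subtracted and quantile-normalized. It was used as an alternative with a floor at 16, and its replicate numbers differ from the headers' in 5 groups. The 10 genes and all lists were chosen with earlier results of these data known.

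Background was corrected from the detection p-values, followed by quantile normalization and log2 after adding 16 (neqc, limma 3.58.1, R 4.3.3). Probes with a detection p under 0.05 on at least 3 arrays were kept, 20769 in all. A limma model with 8 group means and 16 residual degrees of freedom was fitted to all kept probes, and p-values were adjusted by Benjamini and Hochberg over all of them with a threshold of 0.05. Dexamethasone against no treatment was tested as the mean over genotypes. The model was tested on simulated data. A bound sets a group that did not detect a probe at the higher of its own signal and the lowest signal detected on that array. SE stands for the standard error of a difference. The probe annotation gave 1 symbol for 29976 probes, several for 10 and none for 16646. The brightest kept probe stood for a gene in gene order. RefSeq names of GRCm38.p6, which updated 0 symbols, gave the order. The genes named were the 10, Trim63, their relatives where 5 or fewer were counted, genes beside Trim63 or past the threshold in all 4 genotype comparisons, and the 3 most correlated with the 2 widest differences. E2f2 and Map3k6 were named after their values were seen. Of the marker lists, fibres, slow fibres, fibroblasts, tendon, macrophages, lymphocytes, neutrophils, endothelium, adipocytes, red blood cells, Schwann cells, satellite cells and smooth muscle were counted together.

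Same-numbered samples correlated in their deviations from group means above 0.1 in 7 of 24 pairs (-0.46 to 0.49), so the numbers were not treated as pairing. Alternatives tried were other background, scaling, filter and weighting choices, a replicate block, arms fitted apart, and each array left out. The number of arrays limits the precision.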

Additional observations from a re-analysis of the deposited data

How the results depend on the processing

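Each result was recomputed under up to 34 alternatives, 24 of which left out 1 array each. No called direction turned, and Slc30a2 at both times and Hspb7 at 3 days passed in all 34. Bsdc1 at 3 days was lost with median scaling (adjusted p = 0.0875) and Gpn2 at 3 days under 10 alternatives. Counts of the 12 probes in the 4 genotype comparisons, in the order used above, ran over 8 to 9, 9 to 9, 8 to 10 and 8 to 11 when 1 array was left out. Median scaling gave 10, 11, 7 and 7 there, and array weights 9, 11, 10 and 11. With 1 array left out, counts of the dexamethasone response ran over 3 to 4 at 3 days and 1 to 2 at 14 days, and the change between times, the untreated arms and the relatives stayed at 0. For the dexamethasone response median scaling gave 2 probes at 3 days and 1 at 14 days. The authors' value table and no filter gave 1 each at 14 days, and array weights 4 (3 higher, 1 lower). Over all probes median scaling called 1138 at 3 days and 648 at 14 days, against 2147 and 1348 in the main fit. At 14 days the value table called 1227 of all probes, no filter 1125 and array weights 3065. For the relatives, median scaling gave 7 and array weights 4 under dexamethasone at 3 days, and array weights 9 untreated at 14 days. Over all probes median scaling called 162, 2512, 32 and 38 in the 4 genotype comparisons, against 67, 98, 62 and 114 in the main fit. Array weights, lowest at 0.21 for the array that stood apart, called 151, 1863, 2943 and 234. Leaving out 1 array moved the genotype counts over all probes to 44 to 79, 47 to 116, 38 to 165 and 56 to 198. The lowest were without untreated knockout replicate 3 at 3 days, treated wild-type replicate 2 at 3 days, untreated knockout replicate 3 at 14 days and treated knockout replicate 2 at 14 days. The counts of 165 and 198 were without untreated knockout replicate 1 at 14 days and without the array that stood apart. With the replicate block the genotype counts were 8, 9, 9 and 10 and those of dexamethasone 4 and 2, equal to those without it. It changed no other call. Numbers taken from the value table as the block, an alternative chosen after seeing the data, gave the same counts. Sizes near background moved with the setting, as for Pnrc2 in untreated muscle at 3 days, between -3.92 and -2.10. The genotype differences of every probe but Eya3 ILMN_1243290 kept their sign under all alternatives. Chip identity as a block was not run because the headers name no slides. The number of arrays and signals close to background limit Zmym6, Padi2 and Eya3. Leaving the array that stood apart out of the relatives, the marker genes and the responses in the knockout alone was chosen after seeing the data.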
